A study of Mus musculus with 12 samples.

Results

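The genes described here encode the proteins of the cytosolic ribosome in mouse ventral hippocampal area CA1 (vCA1). They were chosen by name: symbols that begin with Rpl or Rps and a digit, with Rplp0, Rplp1, Rplp2, Rpsa and Fau added. Names with -ps, the Rps6k kinases, Rps19bp1 and 6 paralogues with their own genes (Rpl3l, Rpl7l1, Rpl10l, Rpl22l1, Rpl39l and Rps27l) were left out, as were genes that are not protein-coding and genes with a mean of under 10 reads over the 12 libraries. This left 80 genes of the 55471 in the count table, of which 33 belong to the small 40S subunit and 47 to the large 60S subunit. All 80 passed the filter on low counts.

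A ribosome joins a small subunit, which binds the mRNA and reads its codons, to a large subunit, which forms the peptide bond and holds the exit tunnel for the new chain. Most vertebrate ribosomal protein mRNAs begin with a run of pyrimidines, the 5′ terminal oligopyrimidine (TOP) tract, through which the mTORC1 kinase pathway controls their translation. In hippocampal neurons ribosomes and ribosomal protein mRNAs are found in dendrites as well as cell bodies, and late long-term potentiation is known to need protein synthesis.

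Polyadenylated RNA was sequenced from acute horizontal slices, 400 µm thick, of wild-type male C57BL/6J mice aged 5 to 7 weeks. All slices rested for at least 3 h, all carried electrodes, and all were frozen 30 min after stimulation, when 1 mm2 of vCA1 was cut out. In the 4 groups of 3 libraries, Control slices received basal stimulation only, and in STET the strong tetanus, a late long-term potentiation protocol, was given as 3 trains, each of 100 pulses delivered at 100 Hz. STET_S100 slices received 100 Hz stimulation of the basolateral amygdala together with the tetanization. STET_S200 slices are labelled as 200 Hz amygdala stimulation with the tetanization, although the bracketed pulse rate in the same label reads 100 Hz. Each library pooled 6 slices, and each mouse gave 4 slices, 1 to each group, so the groups share mice and the p-values treat libraries as independent. The dissected block holds neurons, glia and vessels, so fewer cells of a type and less RNA per cell cannot be told apart.

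The libraries held 36347161 to 52829181 counted reads. CPM are counts scaled to the library's total times its TMM factor, or to the total alone for summed markers and the Fabp4 limit. Summed markers of CA1 pyramidal neurons lay between 5450 and 6150 CPM in every library. Markers of the choroid plexus, a neighbouring epithelium, ranged from 390 to 1930 CPM in Control, 459 to 3410 in STET, and, with amygdala stimulation, 116 to 4300 in STET_S100 and 88.8 to 162 in STET_S200. The adipocyte gene Fabp4 was above 1 CPM in 5 libraries: Control 3, STET 3, STET_S100 1, STET_S200 2 and STET_S200 3.

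The start-site windows of 9 of the genes are shown because they have, or lack, a pyrimidine run at the annotated start, in genes at both ends of the differences described further on. Each runs from 40 bases before to 20 bases from the annotated RefSeq start (GRCm38.p6), read 5′ to 3′ on the gene's strand. Capitals mark a C followed by C or T only, at least 5 bases long, whose first base lies within 10 bases of the start. Such a run is a match of letters and was not shown to act as a TOP tract. The small genes Rps27, Rpl38, Rps21 and Rpl39 had such a tract (Rps21 at the upstream of its annotated starts, and at no other), and Rpl37a and Rpl41 had none in this window. Rpl15, Fau and Rps6, whose levels were close in STET and Control, had tracts of 17, 16 and 10 bases.
Rps27 (chr3:90213629-90213688, minus strand): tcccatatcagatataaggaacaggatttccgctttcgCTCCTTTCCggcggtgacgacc
Rpl38 (chr11:114668540-114668599, plus strand): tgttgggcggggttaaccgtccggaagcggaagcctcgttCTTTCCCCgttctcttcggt
Rps21 (chr2:180257339-180257398, plus strand): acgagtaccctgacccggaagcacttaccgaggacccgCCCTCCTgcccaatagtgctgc
Rpl39 (chrX:37085203-37085262, minus strand): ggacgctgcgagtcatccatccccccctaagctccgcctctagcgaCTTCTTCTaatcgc
Rpl37a (chr1:72711220-72711279, plus strand): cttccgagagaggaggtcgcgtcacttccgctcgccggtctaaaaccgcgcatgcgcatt
Rpl41 (chr10:128549149-128549208, minus strand): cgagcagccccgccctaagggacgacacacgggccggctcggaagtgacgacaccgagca
Rpl15 (chr14:18270967-18271026, minus strand): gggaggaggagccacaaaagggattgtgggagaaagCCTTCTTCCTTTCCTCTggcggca
Fau (chr19:6057907-6057966, plus strand): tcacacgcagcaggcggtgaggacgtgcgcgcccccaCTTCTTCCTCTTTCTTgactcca
Rps6 (chr4:86857348-86857407, minus strand): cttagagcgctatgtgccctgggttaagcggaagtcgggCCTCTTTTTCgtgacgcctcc

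Of the 80 genes, 60 matched a promoter entry by symbol, with 70 start sites. A tract lay at 38 of the 70 sites (54.3%), against 30.7% of the 32851 start sites of all genes. Within the 300 bases around the start, on either strand, CCGGAAG was found at 35.7% of the sites against 8.86% of all sites, ATGGCGG at 17.1% against 4.05%, and TCTTTCC, whose letters can lie within a pyrimidine tract, at 24.3% against 8.29%. TATAAA was found at 8.57% against 13.6%. These are matches of letters and not shown binding sites.

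Counted reads were abundant for most of the 80 genes. Their summed share of all counts was 1.22% ± 0.0173 (SD, n = 3) in Control, 1.27% ± 0.00977 in STET, and, with amygdala stimulation, 1.21% ± 0.0329 in STET_S100 and 1.197% ± 0.0483 in STET_S200. The 3 STET libraries, at 1.26% to 1.28%, lay above the 9 others, which reached 1.25%. Mean CPM per kb of transcript, the scale on which genes can be compared, was highest for Rplp1 at 656, one of the acidic stalk proteins that draw elongation factors to the ribosome. Next came the 40S proteins Rps29 at 514, Rps15 at 466, Rps21 at 438 and Rps27 at 392.

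**Figure D1:**
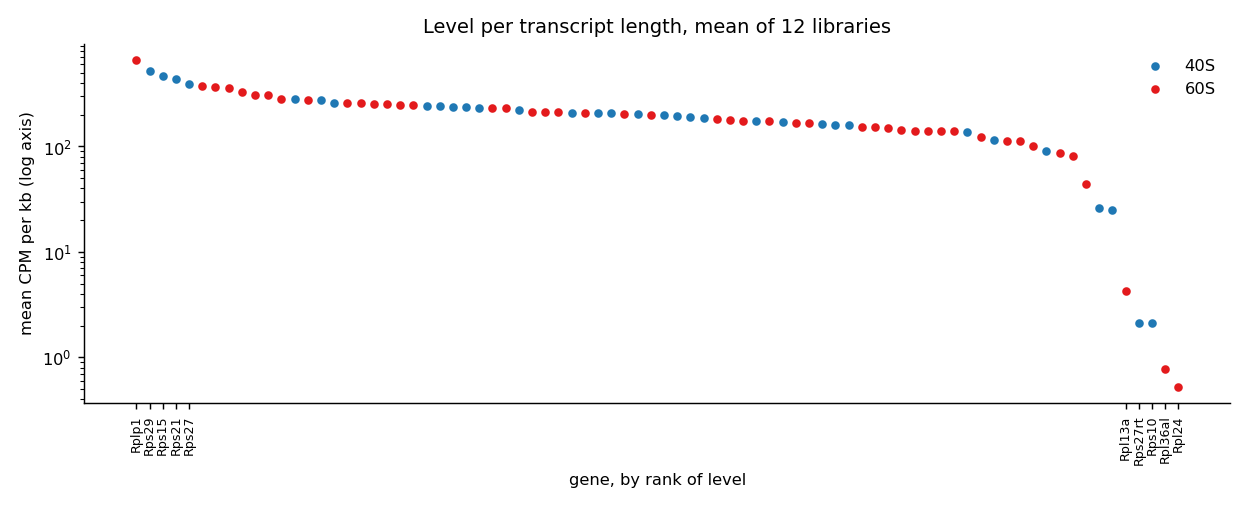
Each point is 1 of the 80 genes, with the 5 highest and 5 lowest named, ordered by mean CPM per kb of transcript over 12 libraries (log axis), with 40S genes in blue and 60S genes in red. Rplp1 leads at 656, and Rpl13a, Rps27rt, Rps10, Rpl36al and Rpl24 stand apart at the low end, at 4.25 and below.

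A group of 5 genes stood far below the rest: Rpl13a at 4.25, Rps27rt at 2.13, Rps10 at 2.11, Rpl36al at 0.767 and Rpl24 at 0.527 CPM per kb. Their mean raw counts were 15.8 (Rpl24) to 197 (Rpl13a), while the other 75 genes started at 2353 (Rpl39). Rps27rt is named as a retrocopy of Rps27. Ribosomal protein genes have many near-identical copies in the genome, and how reads shared with such copies were counted is not stated, so the levels of these 5 are uncertain. Pseudogenes named after a ribosomal protein with -ps held 0.00316% to 0.00435% of the counts. Adding those reads to their parent genes left the number past the threshold at 0 in each comparison.

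From library to library the genes moved together. The deviation of a gene from its group means correlated with the mean deviation of the other genes at a median Pearson r of 0.748 over 12 libraries, from -0.693 to 0.956. The coefficient was over 0.5 for 69 of the 80, against 8.37% of other genes tested; all share the same libraries and scaling. The within-group SD had a median of 0.054 on the log2 scale, close to the 0.0559 of the 4545 genes with a mean of 50 CPM or more. Rpl8 and Rpl7a, proteins of the 60S core, and Rpl22, an RNA-binding 60S protein with a role in lymphocytes, varied least, and the low-count Rps27rt, Rpl24 and Rpl36al varied most. Rpl19, a 60S protein, had the lowest coefficient, -0.693, followed by Rpl36al and Rpl13a.

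The comparison of STET with Control asks how tetanization of vCA1 changed these mRNAs. Of the 80 genes, 74 had a higher fitted level in STET (32 of 33 for the 40S and 42 of 47 for the 60S), by small amounts: the median log2 fold change was 0.06, against -0.00 for all 19492 genes tested, of which 49.9% were higher. None of the 80 passed an adjusted p of 0.05 in edgeR's quasi-likelihood test (smallest adjusted p = 1.00), and the background was 0% of all genes tested. At an unadjusted p under 0.05, 18 were higher and 0 lower, against a background of 1.97% higher and 1.53% lower. DESeq2 and limma-voom gave the same counts, 18 at that unadjusted level and 0 past the threshold. Over all 19492 genes they held 516 and 739 at that level, and 1 and 0 past the threshold. No overlap was seen in 42 genes with STET on the higher side (background 4.69%) and in 0 with STET on the lower side (background 4.2%). The 18 became 9 without Control replicate 1 and 11 without Control replicate 2, while 73 genes stayed positive in each of these fits. Summed oligodendrocyte markers were 2770 to 3470 CPM in Control and 3190 to 3710 in STET, with 10 of 10 higher at a median of 0.06. Choroid plexus markers were higher for 12 of 12 (median 0.51), endothelial markers for 7 of 10, microglial markers for 6 of 15 and astrocyte markers for 4 of 10; the part of any of these in the result was not tested.

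STET had the highest group mean for 70 of the 80 genes and the lowest for 0. All 3 STET libraries lay above all 9 others in 16 of the 80 genes, against 0.457% of all genes tested, among them Rpl26, Rpl29, Rpl30, Rpl32, Rpl35, Rpl35a, Rpl36, Rpl37, Rpl37a, Rpl41, Rps14, Rps16, Rps21, Rps24 and Rps28. This is a description of position only, since the same STET libraries enter every such gene. The median deviation from the Control mean over the 80 genes was 0.07, 0.08 and 0.05 in the STET libraries, and ran from -0.08 (STET_S200 3) to 0.05 (STET_S200 1) in the amygdala-stimulated libraries.

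**Figure D2:**
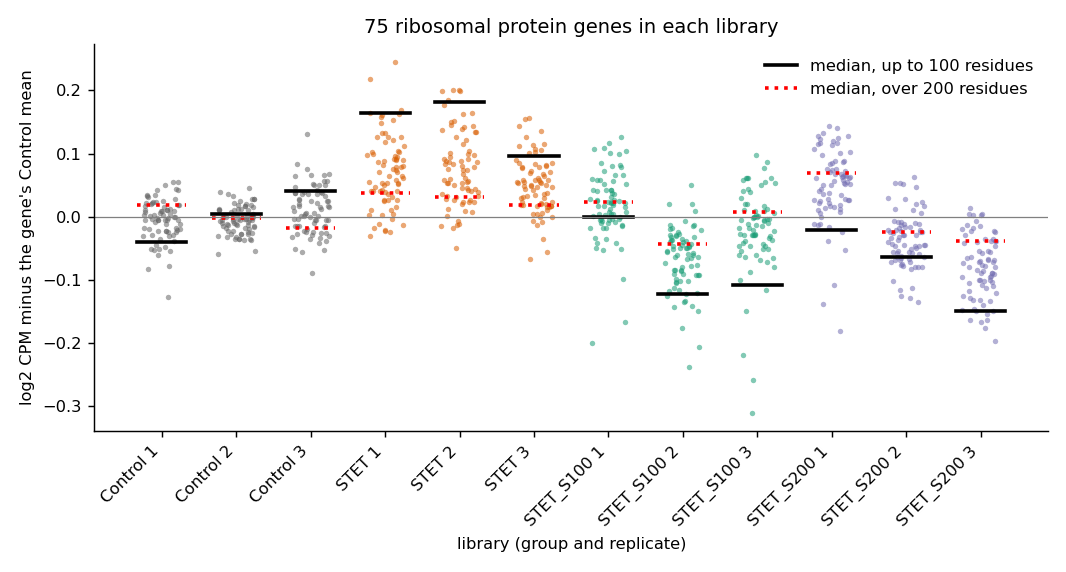
Each point is 1 of the 75 genes with a mean count over 1000, as its log2 CPM minus its own mean in Control, in each of the 12 libraries. Black bars give the median of the 10 genes for proteins of up to 100 residues and dotted red bars that of the 22 genes for over 200 residues, both including low-count genes not plotted (Rps27rt and Rpl13a); the black bars stand at 0.16, 0.18 and 0.10 in STET and between -0.15 and 0.04 in the other libraries.

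The genes for the smallest ribosomal proteins differed most. Size classes were set after the values were seen, so they carry no test. For the 10 genes that encode up to 100 residues the median log2 fold change of STET against Control was 0.15 and all 10 were positive. It was 0.07 for the 48 genes of more than 100 and up to 200 residues and 0.03 for the 22 longer ones. Across the 80 genes, which share the libraries and are not independent, Spearman's rho between protein length and log2 fold change was -0.699 (Pearson's r -0.529), and -0.709 in the 75 genes with over 1000 reads.

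Among the small 40S proteins, Rps29, a zinc-binding protein of the subunit's head, was at 190, 207 and 228 CPM in Control and 232, 239 and 211 in STET. In STET_S100 Rps29 was at 185, 180 and 168 CPM, and in STET_S200 at 189, 192 and 185. STET and Control overlapped for Rps29, and every amygdala-stimulated library lay below every STET library. The log2 fold change of Rps29 was 0.13 ± 0.0605 (SE) in STET against Control, -0.36 ± 0.0606 in STET_S100 against STET and -0.27 ± 0.0606 in STET_S200 against STET.

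Rps27, a zinc-binding 40S protein, was at 136, 130 and 132 CPM in Control, 158, 153 and 145 in STET. The STET_S100 libraries had 145, 122 and 128 CPM and those of STET_S200 had 131, 127 and 116. All STET libraries of Rps27 were above Control, while the lowest STET and the highest STET_S100 library were nearly level. Its log2 fold change was 0.19 ± 0.0585 in STET against Control and -0.28 ± 0.0586 in STET_S200 against STET.

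Rps21, a 40S protein that takes part in maturation of the subunit, stood at 168, 170 and 176 CPM in Control and 192, 188 and 188 in STET, with no overlap. With amygdala stimulation Rps21 stood at 177, 157 and 164 CPM in the STET_S100 libraries and 173, 163 and 153 in those of STET_S200, all below STET. Rps28, which lies near the mRNA exit, followed the same order, at 75.6 to 81.0 CPM in Control, 84.4 to 88.6 in STET, and 67.3 to 78.6 and 70.7 to 77.7 in the STET_S100 and STET_S200 libraries.

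Among the small 60S proteins, Rpl38, known for its role in translating Hox mRNAs in the embryo, was at 112, 119 and 126 CPM in Control and 138, 137 and 126 in STET. Rpl38 was at 118, 108 and 111 CPM in STET_S100 and 118, 112 and 109 in STET_S200, all below the STET libraries. Its log2 fold change was 0.17 ± 0.0518 in STET against Control, -0.25 ± 0.0517 in STET_S100 against STET and -0.24 ± 0.0518 in STET_S200 against STET. Rpl37a, a zinc-binding 60S protein, was at 124 to 128 CPM in Control and 140 to 143 in STET without overlap, a log2 fold change of 0.17 ± 0.05.

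Rpl39, which lines the exit tunnel, was at 52.1, 54.6 and 55.7 CPM in Control, 60.2, 59.5 and 55.01 in STET. The STET_S100 libraries had 52.1, 45.9 and 48.8 CPM and those of STET_S200 had 50.2, 53.3 and 51.2. Rpl39 in STET overlapped with Control and lay above both other groups. Rpl41, the shortest at 25 residues, was at 207 to 210 CPM in Control, 210 to 221 in STET, and 192 to 207 and 190 to 200 in the STET_S100 and STET_S200 libraries. Its difference between STET and Control, 0.06 ± 0.0385 on the log2 scale, was smaller than those of Rpl38 and Rpl37a.

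**Figure D3:**
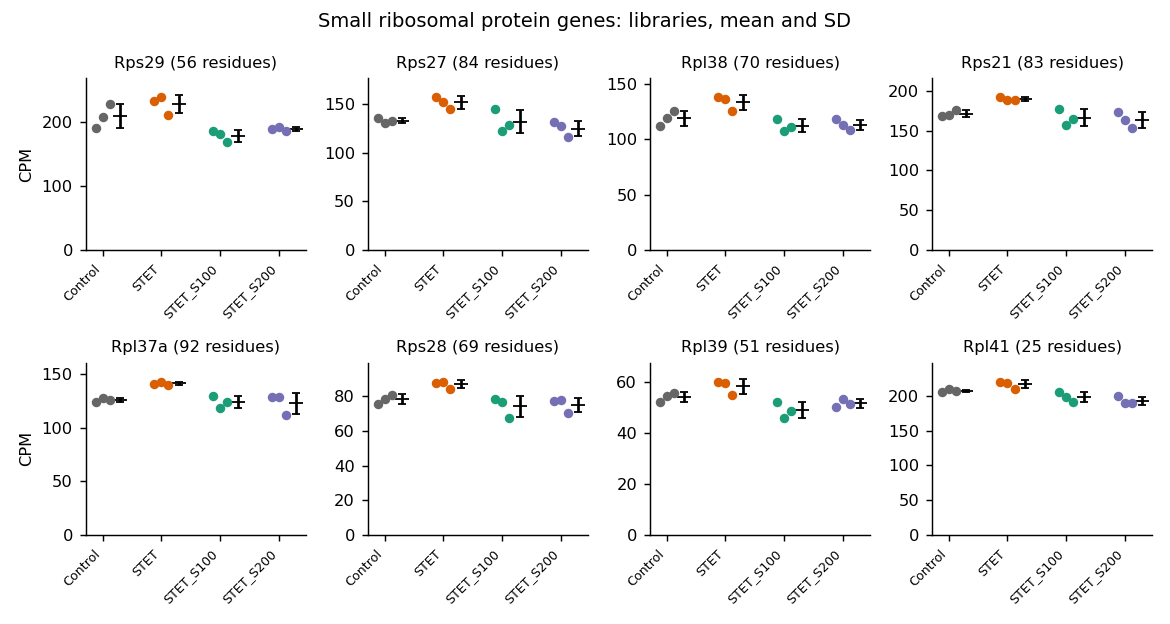
CPM of 8 genes for small ribosomal proteins, with a point for each of the 3 libraries of a group and the mean and SD beside them; every axis starts at 0. In Rps21, Rpl37a, Rps28 and Rpl41 the 3 STET points lie above the 9 others.

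Several genes for large proteins stood close to 0 in this comparison. Rpl3, a core 60S protein by the peptidyl transferase centre, was at 422, 413 and 404 CPM in Control and 416, 410 and 403 in STET (log2 fold change -0.01 ± 0.039). Rps6, the target of S6 kinase, had -0.01 ± 0.0397, and Rpl4, the longest at 419 residues, 0.01 ± 0.0414. Rps3 of the mRNA entry region had 0.01 ± 0.0355 and Rpsa, also named the laminin receptor, 0.02 ± 0.0408. Fau is not a large protein, but also stood close to 0, at 0.00 ± 0.0393. It is made as a fusion with a ubiquitin-like protein, and its 133 residues include the fused part.

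Of the stalk proteins, Rplp0, the base, had a log2 fold change of 0.04 ± 0.0529 in STET against Control and Rplp1 0.06 ± 0.0412. Rplp2 was at 88.5, 91.9 and 96.8 CPM in Control and 98.8, 102 and 103 in STET, with no overlap and a log2 fold change of 0.13 ± 0.0528. Rps19, mutated in Diamond-Blackfan anaemia, had 0.03 ± 0.0448, while Rpl10, which joins the 60S subunit late, had 0.10 ± 0.0437 with no overlap. Rpl22, 128 residues long but with an mRNA longer than most of the set, had -0.01 ± 0.0359. The 6 genes with a lower fitted level in STET were Rpl19 (-0.04 ± 0.0482), Rpl3, Rps6, Rpl13a (-0.02 ± 0.131), Rpl22 and Rpl8 (-0.00 ± 0.0335), none near the threshold.

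**Figure D4:**
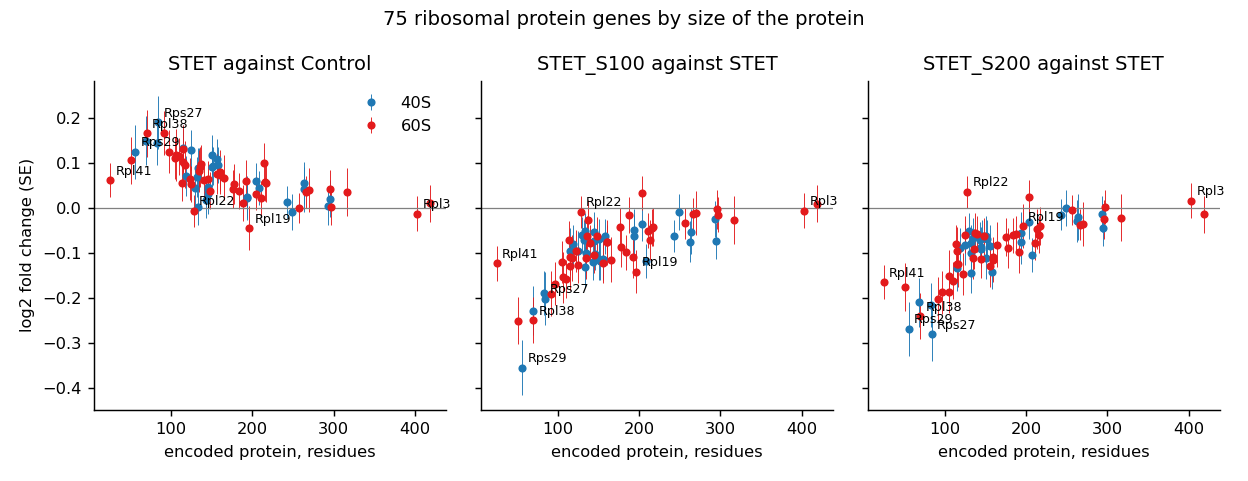
Log2 fold change with its SE (vertical axis) against the length of the encoded protein in residues, for 75 genes in 3 comparisons, 40S in blue and 60S in red. All 3 comparisons share the STET libraries. The points lie highest at the left in STET against Control and lowest at the left in both comparisons with STET, with Spearman's rho of -0.709, 0.721 and 0.793.

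Other genes with short transcripts leaned the same way, by less. Among protein-coding genes outside the set with transcripts of up to 500 bases (n = 113) the median log2 fold change of STET against Control was 0.07, against 0.12 in the 14 ribosomal protein genes of that length. From 500 to 1000 bases it was 0.04 in 906 other genes against 0.06 in 46 ribosomal protein genes, and from 1000 to 2000 bases 0.01 in 3436 against 0.04 in 16. Over 4000 bases the other genes had -0.02. The part of transcript length in the difference of the ribosomal protein genes was not tested.

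**Figure D5:**
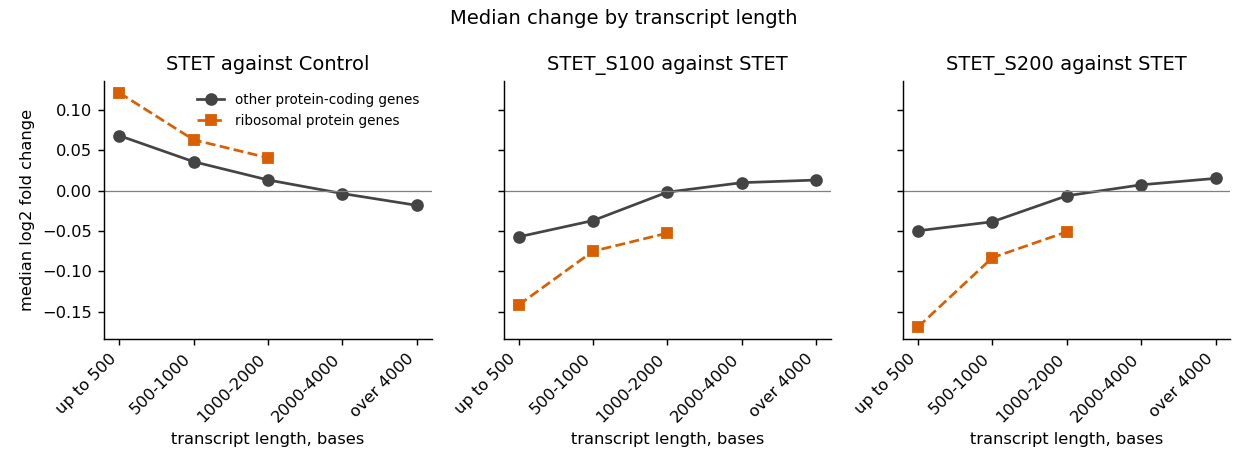
Median log2 fold change (vertical axis) by transcript length in bases, for other protein-coding genes (grey) and for ribosomal protein genes in bins with at least 10 of them (orange), in 3 comparisons. All 3 comparisons share the STET libraries. In STET against Control the grey line goes from 0.07 in the shortest to -0.02 in the longest bin, with the orange points above it; in both other panels the slopes are opposite and the orange points lie below.

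The comparison of STET_S100 with STET asks what amygdala stimulation at 100 Hz added to the tetanization. It uses the same STET libraries as STET against Control, so it is not independent of that comparison. A high level in those libraries enters both with opposite signs. Here 76 of the 80 genes were lower, with a median log2 fold change of -0.07 against 0.00 over all genes, of which 51.9% were higher. None passed an adjusted p of 0.05 in edgeR (background 0%), the smallest adjusted p being 0.614 for Rps29. At an unadjusted p under 0.05, 0 were higher (background 1.34%) and 32 were lower (background 1.82%). In 42 genes all STET_S100 libraries lay below all STET libraries (background 4.87%), and in 0 above (background 4.73%). DESeq2 placed Rps29 past the threshold (adjusted p = 0.000531), the only 1 of all 19492 genes, and limma-voom placed 0. Each held 32 at the unadjusted level, against 461 (DESeq2) and 709 (limma-voom) of all genes.

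By size, the median log2 fold change of STET_S100 against STET was -0.21 in genes of up to 100 residues, -0.09 in the middle class and -0.03 in longer ones, and rho with residues was 0.71. Rps29, Rpl38, Rpl39 (-0.25 ± 0.0527) and Rps28 (-0.23 ± 0.0547) led the lower genes, and Rpl15 (0.03 ± 0.0371), Rpl13a, Rpl4 and Rpl24 were the 4 on the positive side. Summed markers of oligodendrocytes were 3190 to 3710 CPM in STET and 2950 to 3120 in STET_S100, with 10 of 10 markers lower (median -0.15). Astrocyte markers, at 7580 to 8090 CPM in STET and 7100 to 7750 in STET_S100, were also lower for 10 of 10 (median -0.06). Microglial markers, at 382 to 418 and 358 to 416 CPM, were higher for 3 of 15 (median -0.09), and choroid plexus markers for 12 of 12 (median 0.69). The part of these markers in the result was not tested. Without STET_S100 replicate 2, 15 genes were at the unadjusted level, with a median of -0.06. STET replicate 2 also bore on that count, which was 20 without it.

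STET_S200 against STET gave a like picture from the same STET libraries, so it is no independent repeat. Again 76 genes were lower, the median log2 fold change was -0.08 against 0.00 over all genes, and 0 passed in edgeR (background 0%, smallest adjusted p = 0.857). At an unadjusted p under 0.05, 28 were lower (background 2.42%) and 0 higher (background 2.13%), and 26 were lower without overlap (background 5.76%) and 0 higher (background 6.22%). DESeq2 placed 5 past the threshold, beside 16 of all 19492 genes: Rps27 (adjusted p = 0.0245), Rps29 and Rpl38 (both 0.0354), Rpl41 (0.0476) and Rps21 (0.0492). In limma-voom 0 passed. Each of these tools held 29 at the unadjusted level, against 784 (DESeq2) and 893 (limma-voom) of all genes.

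The medians by size of STET_S200 against STET were -0.21, -0.09 and -0.03, with rho of 0.771. The 4 genes on the positive side were Rpl22 (0.04 ± 0.0359), Rpl15 (0.02 ± 0.0372), Rpl3 (0.02 ± 0.039) and Rpl5 of the 5S particle (0.00 ± 0.0385). Library STET_S200 1 stood apart from its group: its median deviation from the Control mean was 0.05, against -0.04 and -0.08 in STET_S200 2 and 3. Without STET_S200 1 the lower genes at the unadjusted level numbered 50, and without STET_S200 2 or 3 they numbered 18 and 16. In the 7 libraries with Fabp4 of 1 CPM or less, where STET_S200 1 is the only library of its group, the median was -0.01 with 33 genes positive. In those 7 libraries the median of STET_S100 against STET was -0.11 with 3 genes positive and that of STET against Control 0.07 with 70 positive. The 5 libraries with higher Fabp4 hold 1 library in 3 of the groups, too few to give a spread; their medians against the Control mean were 0.01 in Control 3, 0.05 in STET 3, 0.02 in STET_S100 1, and -0.04 and -0.08 in STET_S200 2 and 3. Choroid plexus markers, at 88.8 to 162 CPM in STET_S200, had 12 of 12 lower than in STET. Microglial markers, at 343 to 394 CPM, were lower for 15 of 15 (median -0.11), and astrocyte and oligodendrocyte markers for 10 of 10 each (medians -0.06 and -0.05). Their part in the result was not tested.

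Against Control, the medians over all 80 genes stood near 0 in the amygdala-stimulated groups, and those of the smallest proteins were lower. For the 10 genes of up to 100 residues the median log2 fold change was -0.07 with 0 positive in STET_S100, and -0.07 with 1 positive in STET_S200. For the 22 genes of over 200 residues it was -0.00 and 0.00. Microglial markers were higher for 0 of 15 in both comparisons (medians -0.11 and -0.19); their part was not tested. In STET_S100 against Control, 57 of 80 genes were lower with a median of -0.02, 0 passed in edgeR (background 0%, smallest adjusted p = 0.902), and 4 were lower (background 2.57%) and 0 higher (background 2.6%) at the unadjusted level. DESeq2 and limma-voom each gave 0 past the threshold and 4 at the unadjusted level. Over all 19492 genes they held 803 and 1031 at that level, and 3 and 0 past the threshold. Without overlap 11 were lower (background 4.93%) and 2 higher (background 5.19%), Rpl28 and Rpl7a. The lower genes led with Rpl19, at 78.2, 79.7 and 81.9 CPM in Control and 69.6, 74.5 and 66.8 in STET_S100 (log2 fold change -0.19 ± 0.0483), then Rps29 (-0.23 ± 0.0607), Rpl39 (-0.14 ± 0.053) and Rps23, of the decoding centre (-0.10 ± 0.0401). The higher genes led with Rpl15 (0.07 ± 0.0372), Rpl28 (0.07 ± 0.0429), Rps10 (0.23 ± 0.202) and Rps13 (0.05 ± 0.0442). Without STET_S100 replicate 2 the median turned to 0.01, with 44 genes positive, and without STET_S100 replicate 1 it was -0.04, with 16 positive. Without Control replicate 3 the 4 genes at the unadjusted level became 2.

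In STET_S200 against Control, 54 genes were lower with a median of -0.02, 0 passed in edgeR (background 0%, smallest adjusted p = 0.817), and 2 were lower (background 2.98%) and 0 higher (background 2.94%) at the unadjusted level, as in DESeq2 and limma-voom, which also placed 0 past the threshold. Over all 19492 genes DESeq2 and limma-voom held 1004 and 1110 at that level, and 4 and 0 past the threshold. Without overlap 3 were lower (background 5.28%), Rpl41, Fau and Rpl36, and Rpl15 was higher (background 5.73%). Rpl41 (-0.10 ± 0.0386), Rps29 (-0.14 ± 0.0607), Fau (-0.08 ± 0.0395) and Rpl35 (-0.08 ± 0.0474) led the lower genes. Rpl15 (0.06 ± 0.0372), Rps13 (0.06 ± 0.0444), Rpl10 (0.05 ± 0.0437) and Rps25 (0.05 ± 0.0446) led the higher ones. Without STET_S200 replicate 3 the median was 0.01 with 47 positive, without STET_S200 replicate 2 it was -0.01, and without STET_S200 replicate 1 it was -0.05 with 13 genes at the unadjusted level. That level held 1 gene without Control replicate 2 or 3 and without STET_S200 replicate 2 or 3.

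STET_S200 against STET_S100 asks whether the 2 amygdala protocols differed. Here 37 genes were higher and 43 lower, the median log2 fold change was -0.00, and 0 passed in edgeR (background 0%, smallest adjusted p = 0.962), in DESeq2 or in limma-voom. At the unadjusted level 0 were higher (background 1.98%) and 0 lower (background 3.23%) with each of the 3 tools, these backgrounds being edgeR's. Over all 19492 genes DESeq2 and limma-voom held 903 and 923 at that level, and 5 and 0 past the threshold. Without overlap, Rps29 (0.09 ± 0.0607) and Rps3 (0.05 ± 0.0355) were higher (background 4.57%) and 0 were lower (background 4.77%). Among the leading genes were Rpl19 (0.10 ± 0.0484), Rpl31 (0.07 ± 0.0409) and Rpl39 (0.08 ± 0.0531) on the higher side and Rpl36 (-0.07 ± 0.0468), Rps27 and Rpl13a on the lower side. Leaving out single libraries moved the median between -0.04 (without STET_S200 replicate 1) and 0.03 (without STET_S200 replicate 3), so its sign turned with the library left out.

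A joint test of any difference among the 4 groups placed 0 genes past the threshold in edgeR (background 0%, smallest adjusted p = 0.98). At an unadjusted p under 0.05 it held 21 of the 80, against a background of 4.1% of genes, and it was led by Rps29 (unadjusted p = 0.000158). DESeq2 held 23 at that level and placed Rps29, Rpl38 and Rps27 past the threshold, with adjusted p of 0.000164, 0.0178 and 0.0494. In limma-voom 19 were held and 0 placed. Over all 19492 genes DESeq2 held 816 and placed 12, and limma-voom held 751 and placed 0. Without STET_S200 replicate 1 the edgeR count at the unadjusted level was 38, and it was 13 without STET replicate 1 and without STET replicate 2.

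Genes with and without a matched tract near the annotated start had like medians. A gene without a match may still carry a TOP tract, because runs further from the annotated start were not counted. Rpl4, Rps25 and Rpl5, classed as without a tract, have pyrimidine runs further upstream. The split thus follows the start annotation, and whether genes with a TOP tract differed from genes without one was not tested. Among the matched genes with over 1000 reads, the median log2 fold change of STET against Control was 0.06 in the 33 with a tract at any start and 0.06 in the 22 without. In STET_S100 against STET it was -0.07 in both classes. Median protein length was 137 residues with a tract and 164.5 without, and its part was not tested. The printed genes with a tract differed among themselves in STET against Control. Rps27, Rpl38, Rps21 and Rpl39 had log2 fold changes of 0.19 ± 0.0585, 0.17 ± 0.0518, 0.15 ± 0.0491 and 0.11 ± 0.0528. Rpl15, Fau and Rps6, with tracts of 17, 16 and 10 bases, had 0.03 ± 0.0372, 0.00 ± 0.0393 and -0.01 ± 0.0397. Rpl37a and Rpl41, with no such tract, had 0.17 ± 0.05 and 0.06 ± 0.0385. The tract of Rps27, at 9 bases, was nearly as long as that of Rps6. The printed genes were picked, so no relation of tract length to change can be read from them.

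Genes that work with the ribosome were read from lists drawn up with earlier results known, and in edgeR 0 of any list passed in any comparison. Of all genes tested, 49.9% were higher in STET than in Control, the share to set beside the counts below. Of 37 initiation factors, which load the ribosome on the mRNA, 24 were higher in STET than in Control (median 0.01), and of 15 elongation and termination factors 9 were (median 0.01). Of 19 other mRNAs with a known TOP tract, 15 were higher (median 0.03), among them Tpt1 (0.06) and Btf3 (0.06). All 10 TOP-bearing snoRNA host genes, whose introns release small nucleolar RNAs, were higher (median 0.11), led by Snhg8 at 0.20 (unadjusted p = 0.00512, edgeR). Its mean was 17.1 CPM in STET, beside 14.9 in Control, 14.4 with 100 Hz amygdala stimulation (STET_S100) and 14.6 in STET_S200.

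Of 22 genes of the mTORC1 pathway, which controls translation of TOP mRNAs, 6 were higher in STET than in Control (median -0.03), and Rptor, its scaffold, was at -0.09. Of 41 tested ribosome biogenesis genes 32 were higher (median 0.02). Of 77 mitochondrial ribosomal proteins 55 were higher (median 0.03), and of 73 nuclear genes of oxidative phosphorylation, 62 were (median 0.06). At an unadjusted p under 0.05 in edgeR, 9 of these 73 were higher (background 1.97%) and 0 lower (background 1.53%). In STET_S100 against STET the ribosomal protein median of -0.07 stood beside -0.11 for the 13 mitochondrially encoded genes, with 0 of them higher, -0.06 for the snoRNA host genes, also with 0 of 10 higher, -0.06 for oxidative phosphorylation, -0.02 for mitochondrial ribosomal proteins and -0.01 for initiation factors. In that comparison 51.9% of all genes tested were higher.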

How the data were processed

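The deposited table holds raw read counts per Ensembl gene, made by the authors with Trimmomatic 0.39, STAR 2.7.1a and HTSeq 0.11.2, per the submitters' processing notes, which also name R 4.0.2 and limma. Libraries were directional poly(A), per the labels' protocols; for the genome build, the annotation and the use of strand, nothing is stated in the labels.

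The 12 libraries were fitted together in edgeR 4.0.16 (R 4.3.3) with TMM scaling, a low-count filter (filterByExpr, minimum count 10) and quasi-likelihood tests, with Benjamini-Hochberg adjustment over 19492 genes and a threshold of 0.05. There were 7 tests: 6 comparisons and 1 of all groups. Alternatives used DESeq2 1.42.0, limma-voom (limma 3.58.1), other scalings and filters, and single libraries left out. CPM values of genes were computed from the counts and TMM factors, and summed markers and the Fabp4 limit from library totals alone. With 36347161 to 52829181 counts per library, p-values measure the spread between these pools of slices, and no label says which mice a pool holds. The fit was checked on simulated counts. Protein lengths, transcript lengths and biotypes came from GENCODE M21, and start-site sequences from RefSeq (GRCm38.p6).

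The members, gene lists and tests were chosen with earlier results of these data known. Members named are a fixed set of 14, the 4 with the smallest p in each direction of each comparison, and those at the extremes of level (5 each), spread and likeness (3 each). Any other member named (Rpl37, Rpl26, Rpl29 and the like) was chosen after its values were seen. A few genes that the rules would name are not reported here.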

Additional observations from a re-analysis of the deposited data

How the results depend on the processing

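The count of 0 ribosomal protein genes past the threshold in edgeR depended on the filter and the tool. With no filter on low counts (35834 genes) it became 1 in STET against Control (Rps27), 1 in STET_S100 against Control (Rps29), 7 in STET_S100 against STET, 8 in STET_S200 against STET and 8 in the joint test. In these tests 16, 42, 22, 34 and 192 of all 35834 genes passed, beside 0 with the filter. The count stayed at 0 in STET_S200 against Control and against STET_S100, where 69 and 98 of all genes passed. The cause was not tested. With DESeq2 the count became 1, 5 and 3 in STET_S100 against STET, STET_S200 against STET and the joint test. There 1, 16 and 12 of all 19492 genes passed. Leaving out single libraries gave 0 to 1 in STET_S100 against STET (1 without Control replicate 3, Rps29 with an adjusted p of 0.0469) and 0 in the other comparisons. The median log2 fold change over these fits ran from 0.0554 to 0.0703 in STET against Control, -0.0402 to 0.0053 in STET_S100 against Control, -0.0540 to 0.0087 in STET_S200 against Control, -0.0957 to -0.0578 in STET_S100 against STET, -0.116 to -0.0532 in STET_S200 against STET and -0.0383 to 0.0266 in STET_S200 against STET_S100. In the 7 libraries with Fabp4 of 1 CPM or less, with 1 STET_S200 library, it was 0.0531, -0.0097 and 0.0948 in STET_S200 against Control, STET and STET_S100, and Rpl35 in STET_S200 against Control reversed to 0.0357. With the replicate block the medians were 0.0618, -0.0170, -0.0214, -0.0751, -0.0822 and -0.0035 in the order of the 6 comparisons (STET, STET_S100 and STET_S200 against Control, STET_S100 and STET_S200 against STET, STET_S200 against STET_S100) and 0 genes passed. Whether the replicate numbers mark shared mice cannot be told from these libraries. Of 18 same-numbered pairs, 8 had a correlation of deviations over 0.1 (range -0.37 to 0.483). Pairs with different numbers ran from -0.605 to 0.509, so the ranges overlap and a pairing is not excluded. In all, 172 of these counts stayed at 0, their value in the main fit, and the 9 that did not are those given above. Of the medians, 147 moved by less than the SD between libraries (0.0365 on the log2 scale) and 3 by more; the ranges above show that those near 0 changed sign. Of the values of named genes, 16 came past the threshold and 1 reversed. Mean counts were low, at 15.8 to 197, in 5 genes. What limited detection in the other genes was not tested.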

Other observations

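Genes next to the set by name or function were read in the same fit. Rpl22l1, the paralogue of Rpl22, averaged 57.4 CPM in STET, beside 52.0 in Control and 52.4 and 54.2 in the STET_S100 and STET_S200 groups, with a log2 fold change of 0.14 in STET against Control (unadjusted p = 0.0198, edgeR), while Rpl22 itself had -0.01. Rpl37rt, annotated as a transcribed pseudogene, had 0.35 ± 0.152 with a mean of 117 reads. Rps4l, also annotated as a transcribed pseudogene, had -0.01 ± 0.0718. Rack1, a signalling scaffold on the 40S head, had 0.01 ± 0.0396.

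Of 55 tested pseudogenes named after a ribosomal protein, 25 were higher in STET than in Control (median -0.03), beside 74 of the 80 parent genes. Their reads were few, at 0.00316% to 0.00435% of the counts for all pseudogenes so named. At an unadjusted p under 0.05 in edgeR, 3 were higher (background 1.97%) and 1 lower (background 1.53%). Rpl17-ps10 had a log2 fold change of 0.75 ± 0.19, Rps6-ps4 0.83 ± 0.252 and Rpl31-ps8 -0.67 ± 0.226. With SEs of this size, a single pseudogene could not show a shift as small as that of the parents (median 0.06).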
